A study of Sus scrofa with 6 samples.

Results

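The HOX genes of the 4 mammalian clusters HOXA, HOXB, HOXC and HOXD were examined for chromatin accessibility in the developing pig axis. The list named 38 members, and 35 of them had a gene under that symbol in the RefSeq annotation of Sscrofa11.1: 10 in HOXA, 8 in HOXB, 9 in HOXC and 8 in HOXD. HOXB4, HOXB9 and HOXD4 were not analysed here. A member's window was its gene body plus 2 kb upstream of its start, and every called peak that touched the window by at least 1 bp belonged to it. These windows held 43 of 217138 peaks in E18 ZZ, 57 of 199846 in E18 DZ, 38 of 171898 in E21 ZZ, 40 of 188857 in E21 DZ, 77 of 131975 in E28 ZZ and 61 of 137769 in E28 DZ.

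The 6 libraries were made by single-cell ATAC-seq, an assay that cuts accessible DNA with the Tn5 enzyme and gives the fragments of a cell a shared barcode. Somites, the segmented mesoderm beside the neural tube, were taken at embryonic day 18 (E18) and 21 (E21), and myotomes, their muscle-forming part, at embryonic day 28 (E28). Each stage had 1 library from Tibetan pigs (ZZ) and 1 from Duroc×Tibetan pigs (DZ), with the tissue of 5 embryos of a single sow in each library. The labels name no introduced allele and no agent in any group. The axial level of the dissected tissue was not stated, and stage and tissue changed together at E28, so they cannot be told apart. A value of a library is an average over all its cell types, so fewer cells with open HOX chromatin and less opening per cell cannot be told apart.

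The libraries held 89816504 to 133037579 counts (Tn5 cut sites in peaks) over 9286 to 11243 kept barcodes, and the median barcode held 8084.5 to 11452 counts. Both E28 libraries were the shallowest in total counts. Any pair of libraries shared 135 to 189 barcode sequences, at most 1.698% of the smaller library. The windows of the 13 somite and muscle precursor markers, among them PAX3, MEOX1 and MYF5, all had counts in each library and summed to 656 to 783 CPM (counts scaled to the library total). From E18 to E28, MYOG and MEOX1 of this list rose and TBX6 and PAX3 fell.

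HOX genes encode homeodomain transcription factors that give cells along the head-to-tail axis their regional identity. Within a cluster the genes lie in the order of their paralogue numbers, and low-numbered (anterior) genes are active earlier and closer to the head than high-numbered (posterior) ones, a relation known as collinearity. Trithorax proteins keep active HOX chromatin open, Polycomb proteins keep inactive HOX chromatin repressed, and CDX factors, retinoic acid and the insulator protein CTCF act on where the active part of a cluster ends. In somites the combination of active HOX genes specifies the type of vertebra and the muscles formed at that level. Here paralogues 1 to 3 are called anterior (7 members), 4 to 8 central (13 members) and 9 to 13 posterior (15 members).

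The start regions of 5 members are shown because their windows mark the range of behaviour described below: HOXA7, HOXB13 and HOXD12 had the highest signed log2 fold change of their cluster between E18 and E28 (for HOXB13 the least negative of 8 negative values), and HOXB1 and HOXD3 were chosen after their values were seen, as members that fell. Each run holds 250 bases before the gene's start and 50 bases from it onward, read from the RefSeq Sscrofa11.1 genome in the direction of the gene. Capitals mark the motif matches found by the search described after the sequences, and a run without capitals held none. The positions are chr18:45416887-45417186 on the plus strand for HOXA7, chr12:24950612-24950911 on the minus strand for HOXB13, chr15:81900712-81901011 on the plus strand for HOXD12, chr12:24786328-24786627 on the minus strand for HOXB1, and chr15:81969232-81969531 on the plus strand for HOXD3.
HOXA7: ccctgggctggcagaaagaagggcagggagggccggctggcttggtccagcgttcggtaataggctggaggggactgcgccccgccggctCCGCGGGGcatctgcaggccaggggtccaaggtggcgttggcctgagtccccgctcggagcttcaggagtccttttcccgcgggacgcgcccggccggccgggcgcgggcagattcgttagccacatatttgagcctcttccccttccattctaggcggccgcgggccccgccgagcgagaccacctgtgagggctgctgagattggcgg
HOXB13: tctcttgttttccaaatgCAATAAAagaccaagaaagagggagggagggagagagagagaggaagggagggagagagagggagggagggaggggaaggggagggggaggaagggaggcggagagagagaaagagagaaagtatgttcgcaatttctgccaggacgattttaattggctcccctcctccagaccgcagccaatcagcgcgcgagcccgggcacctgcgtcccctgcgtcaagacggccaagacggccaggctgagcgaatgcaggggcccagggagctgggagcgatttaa
HOXD12: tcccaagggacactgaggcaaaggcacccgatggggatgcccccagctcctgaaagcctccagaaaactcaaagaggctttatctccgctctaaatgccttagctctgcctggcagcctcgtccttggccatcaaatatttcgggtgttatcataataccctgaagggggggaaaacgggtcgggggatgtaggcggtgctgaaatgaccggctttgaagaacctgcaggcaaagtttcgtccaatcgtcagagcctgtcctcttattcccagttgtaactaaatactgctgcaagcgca
HOXB1: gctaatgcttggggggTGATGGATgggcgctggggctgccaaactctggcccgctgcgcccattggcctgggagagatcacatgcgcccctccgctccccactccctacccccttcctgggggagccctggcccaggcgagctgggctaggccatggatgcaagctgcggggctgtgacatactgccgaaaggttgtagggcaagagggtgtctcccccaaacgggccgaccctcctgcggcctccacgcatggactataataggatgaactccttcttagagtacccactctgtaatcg
HOXD3: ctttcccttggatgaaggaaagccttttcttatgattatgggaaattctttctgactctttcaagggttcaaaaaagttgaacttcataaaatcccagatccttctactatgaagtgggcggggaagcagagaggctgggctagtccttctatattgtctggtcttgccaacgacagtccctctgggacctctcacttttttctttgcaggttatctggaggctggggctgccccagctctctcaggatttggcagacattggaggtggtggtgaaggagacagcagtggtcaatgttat

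The runs differed widely in CpG content. HOXA7, which acts in the thoracic axis, had 28 CG dinucleotides and 69.67% GC, whereas HOXD3, which patterns the upper neck vertebrae, had 2 CG dinucleotides and 47% GC. HOXB13 had 14 CG, HOXB1 13 and HOXD12 11. Over the 35 members the median was 14 CG per promoter (range 2 to 48), against 16 over 19556 protein-coding promoters and 11 over all 28214 promoters.

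Motifs were searched on both strands, and a match is a description of the letters only. The CTCF core CCGCGNGG matched HOXA7 at position -160 from the gene start (the start base is 0), the CDX motif TTTATNG matched HOXB13 at position -232 on the other strand, and the wide PBX-HOX motif TGATNNAT, which includes every match of the narrow motif TGATTNAT, matched HOXB1 at position -234. Among the 35 members the CDX motif was in 7 (20%, against 10.87% of all 28214 promoters and 9.665% of the protein-coding ones), the MEIS motif TGACAG in 6 (17.14%, against 13.55% and 12.99%), the CTCF core in 6 (17.14%, against 9.485% and 11.82%) and the wide PBX-HOX motif in 3 (8.571%, against 7.854% and 6.484%). The narrow PBX-HOX motif was in 0 members and 2.719% of all promoters, and the direct repeat of the retinoic acid receptor (AGGTCA repeated after 5 bases) was in 0 members and 0.007089% of all promoters.

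The clusters as a whole were CpG-rich and poor in repeats. HOXA held 43.67 CG per kb, HOXB 30.9, HOXC 34.1 and HOXD 34.61, and their own chromosomes (18, 12, 5 and 15) held between 9.54 and 21.51. Repeats masked in the assembly made up 12.51% of HOXA, 25.78% of HOXB, 16.31% of HOXC and 13.36% of HOXD, against 32.88% to 36.16% of those chromosomes.

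Peaks in the HOX windows were several times wider than other peaks in every library. Their median width was 5733 bp in E18 ZZ, 3373 bp in E18 DZ, 4691.5 bp in E21 ZZ, 4771 bp in E21 DZ, 2069 bp in E28 ZZ and 3127 bp in E28 DZ, whereas the median over all peaks was 530 to 561 bp. The 2 myotome libraries had the narrowest HOX peaks, and the medians of E18 DZ (3373 bp) and E28 DZ (3127 bp) lay close together. Peaks of 5 kb or more made up 53.5%, 28.1%, 42.1% and 45% of the HOX peaks in the 4 somite libraries (in the same order) and 19.5% and 32.8% in the 2 myotome libraries, against 0.246% to 0.849% of all peaks. Widths were compared as a description, since peaks of 1 library are not replicates.

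**Figure D1:**
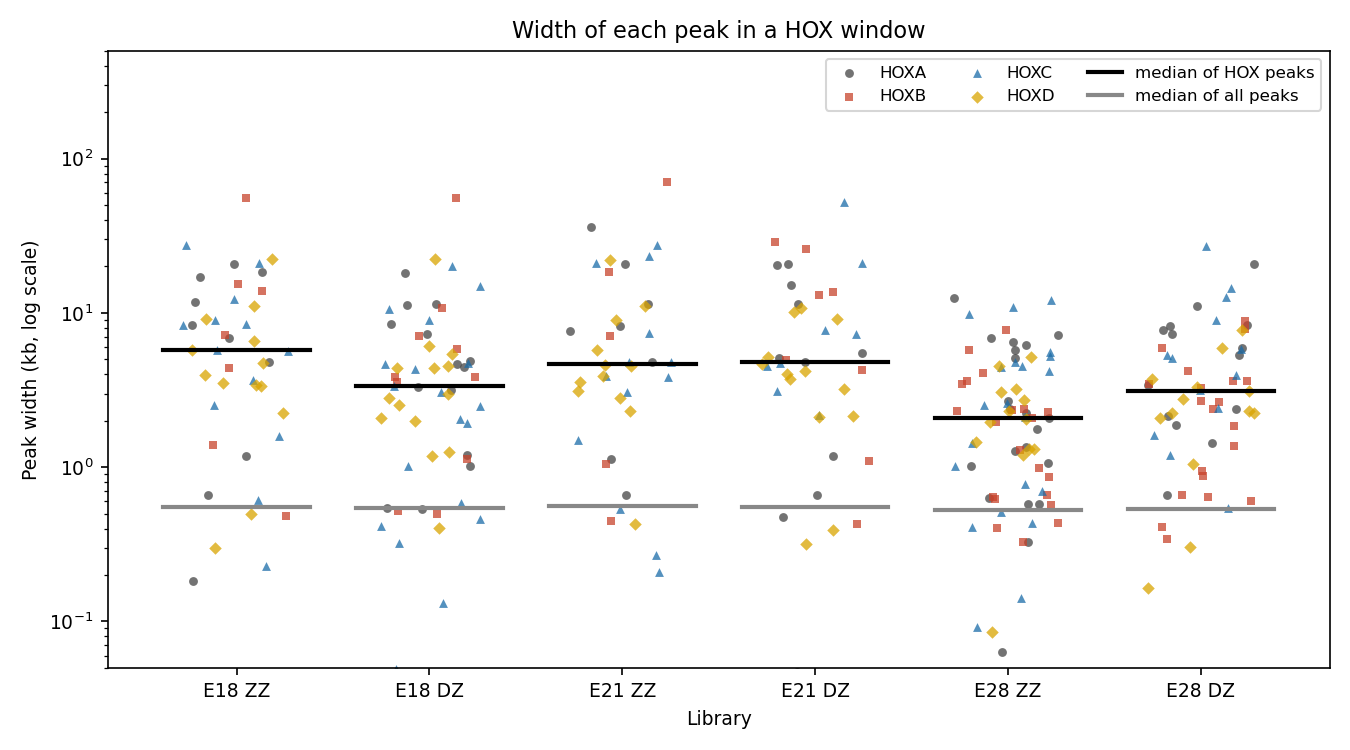
Each point is 1 called peak in a HOX window, plotted by library (horizontal axis) and width in kb (vertical axis, log scale), with colour and shape for the cluster. Black bars are the median of HOX peaks and grey bars that of all peaks; the HOX median lies above the median of all peaks in each library, and no HOXB peak exceeds 8830 bp at E28.

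The widest peak of the whole library lay in a HOX cluster in 5 of 6 libraries. In E18 ZZ, E18 DZ and E21 ZZ it was a HOXB peak of 55577, 55457 and 70096 bp, which covered or touched the windows of HOXB3, HOXB5, HOXB6, HOXB7 and HOXB8 and had counts in 72.6%, 66.3% and 80.5% of the kept barcodes (95% exact binomial intervals 71.7% to 73.4%, 65.3% to 67.2% and 79.7% to 81.3%, for counting error only). In E21 DZ it was a HOXC peak of 52283 bp that touched 6 members, and in E28 DZ a HOXC peak of 27259 bp that touched 3. In E28 ZZ the widest HOX peak was one of 12528 bp in HOXA and ranked 3.

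The HOXB domain was called as many short peaks at E28. The widest HOXB peak measured 28884 bp in E21 DZ, 7758 bp in E28 ZZ (rank 49) and 8830 bp in E28 DZ (rank 62). In HOXD the widest peak went from 22443, 22286 and 21935 bp in the first 3 somite libraries to 10784 bp in E21 DZ, 5211 bp in E28 ZZ and 7690 bp in E28 DZ. HOXA and HOXC kept peaks over 20 kb in E28 DZ (20696 and 27259 bp) but not in E28 ZZ (12528 and 12029 bp). E21 DZ, with 106665140 counts, and E28 DZ, with 98654857, were close in depth; the part of depth in these widths was not tested.

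The called share of each cluster's span varied by library. With the libraries in order of stage, and ZZ before DZ within a stage, called peaks covered 89.3%, 83.3%, 90.1%, 87.6%, 70.9% and 83.6% of the HOXA span. HOXC was covered at 86.8%, 70.7%, 85.3%, 84.4%, 66.3% and 82.5%. HOXB was covered at 69.5%, 64.0%, 69.1%, 67.3%, 41.4% and 50.6%, and HOXD at 82.6%, 71.9%, 76.9%, 75.4%, 53.6% and 63.9%. In HOXB and HOXD both myotome libraries lay below all 4 somite libraries, whereas in HOXA and HOXC the values of E28 DZ lay within the somite range. Coverage of the whole genome was also lower at E28, at 4.20% and 4.45% against 6.04% to 7.85% in somites.

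The loss of called sequence was counted in 1 kb bins, taking a bin as covered when a share of at least 0.5 lay in peaks. Of the bins of the 167709 bp HOXB span, 25 were covered in all 4 somite libraries and in neither myotome library, as were 11 of 98 in HOXD, 6 of 102 in HOXA and 4 of 119 in HOXC. The reverse, a bin covered in both myotome libraries and in no somite library, occurred 0 times in each cluster. Bins outside the clusters were not counted, so these counts have no background. In the 100 kb on each side of HOXB, called coverage was also lower, at 6.7% to 12.1% at E28 against 15.9% to 28.0% in somites. A stretch of HOXB between HOXB8 and HOXB13 contributed to the 48 bins covered in no library, and the other clusters had 7 (HOXA), 8 (HOXC) and 16 (HOXD) such bins.

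The called signal was wide rather than dense. Per covered kb, the clusters held 0.618 to 1.104 times the mean density of all peaks of the library, and HOXC was the lowest of the 4 clusters in each library. HOXD was above 1 in all 4 somite libraries. At E28 all 4 clusters lay below the mean density, at 0.667 to 0.864.

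**Figure D2:**
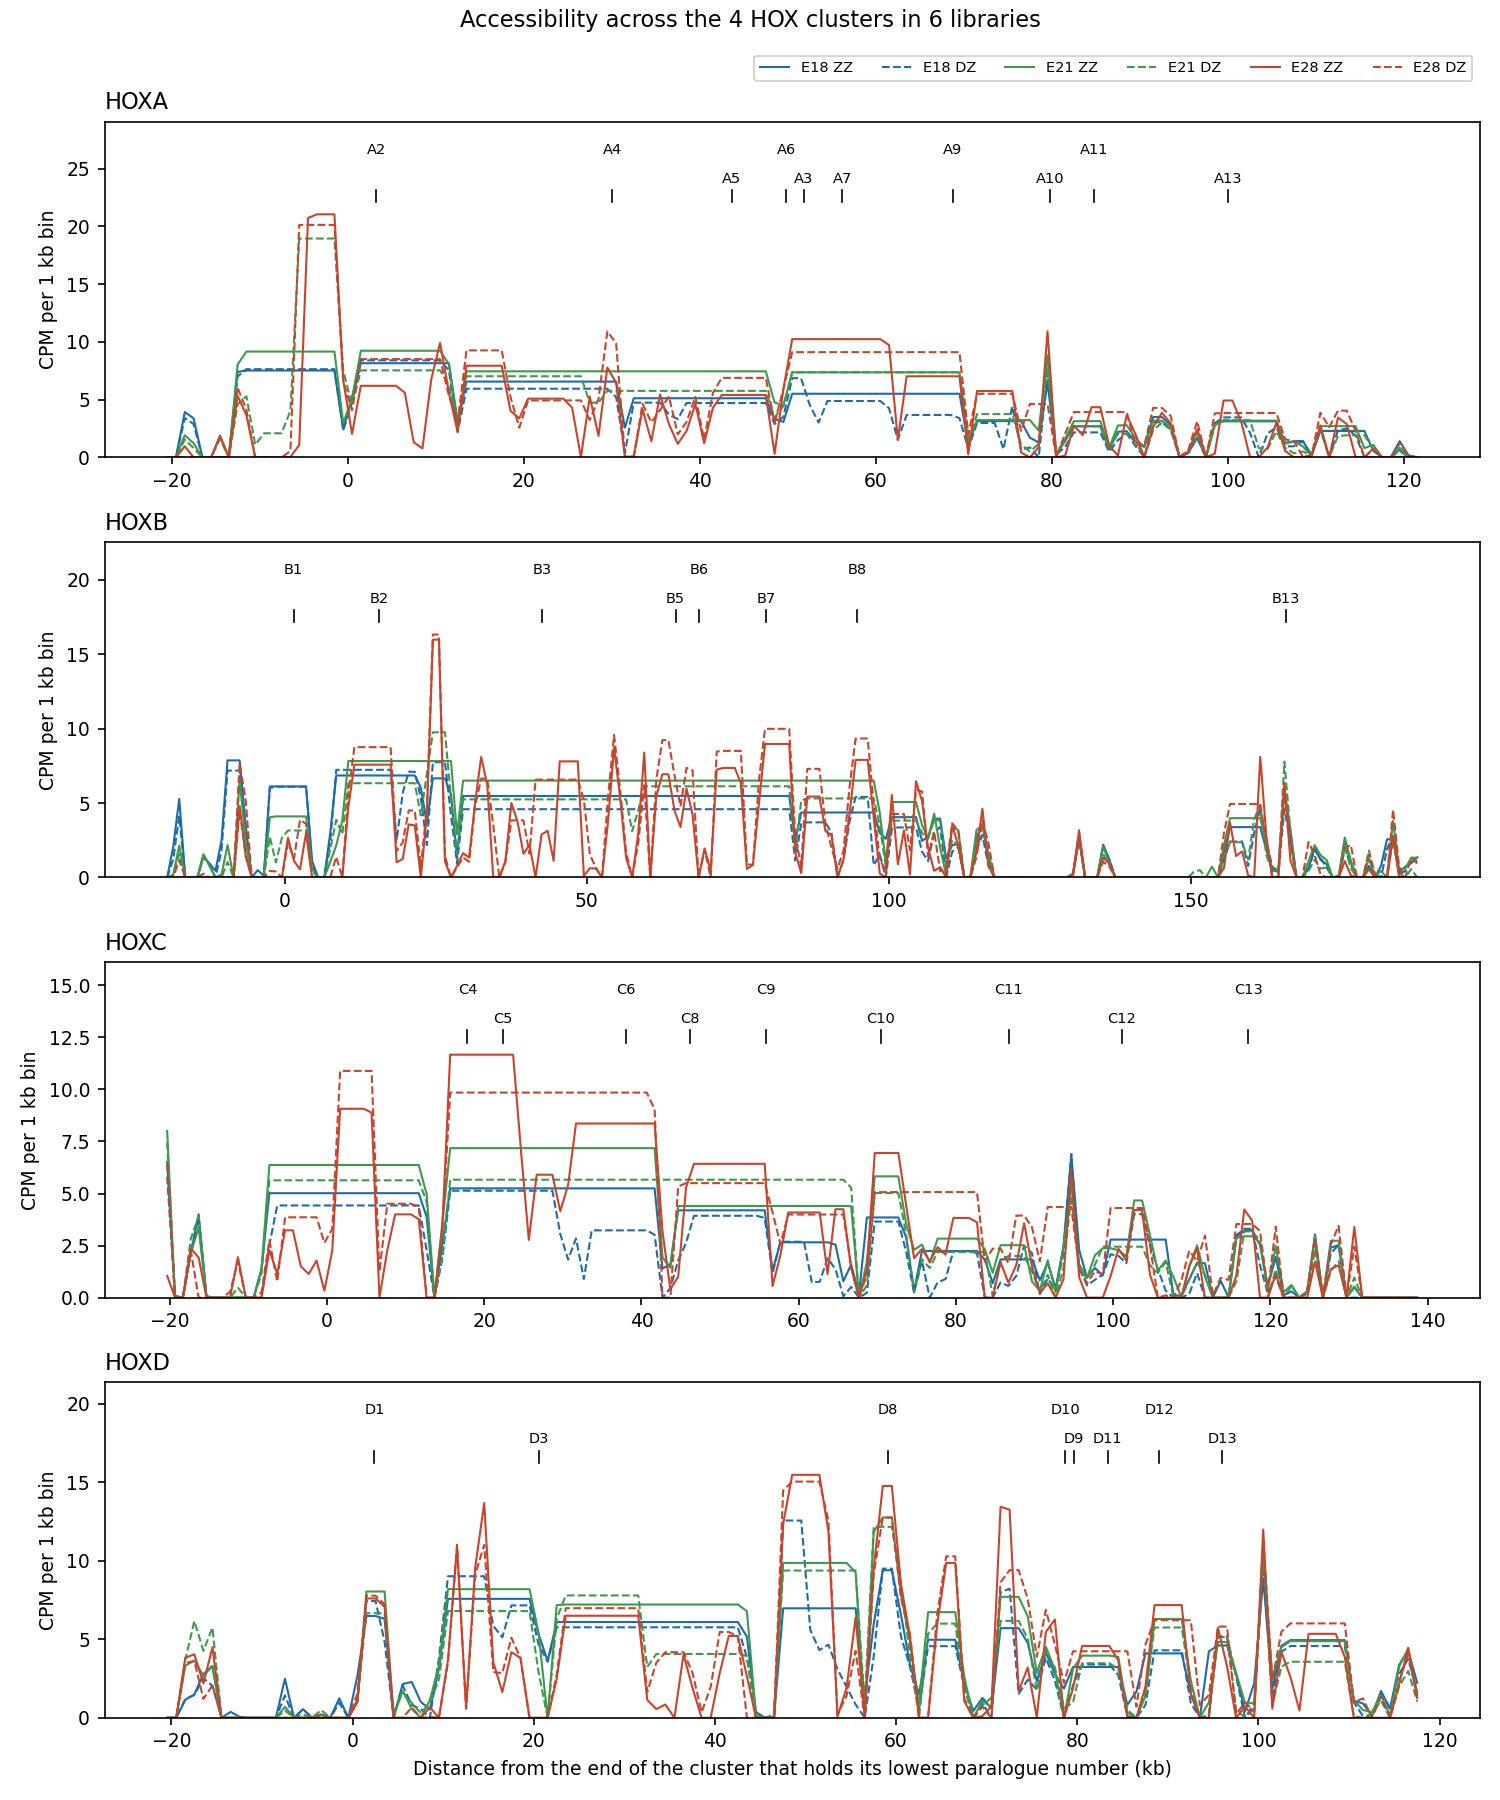
CPM per 1 kb bin (vertical axis) along each cluster, with distance in kb from the end that holds the lowest paralogue number (horizontal axis), 1 line per library, and ticks at gene starts. Counts are spread evenly over each peak, so a flat line is 1 wide peak; HOXB shows a plateau through HOXB3 to HOXB7 in E18 ZZ, E18 DZ and E21 ZZ, a pair of wide peaks there in E21 DZ, and separate peaks in both E28 libraries.

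A peak lay over the start of 35, 33, 34 and 33 of the 35 members in the 4 somite libraries and of 28 and 32 in E28 ZZ and E28 DZ, while the count over 19560 protein-coding genes was 13812, 13576, 13274 and 13259 in somites and 12697 and 12699 at E28. The median start peak over members was 11698, 5413, 14967, 13116, 5020.5 and 7690 bp wide in the same library order. Over all protein-coding genes with a start peak it was 1792 to 2243 bp. The E28 DZ median of the members exceeded that of E18 DZ. A peak over several starts entered these medians once for each start, so wide shared peaks weigh more. The members' start peaks were 24, 26, 22, 23, 24 and 24 distinct peaks. The start of HOXB6 had a peak of 55577, 55457, 70096 and 26032 bp in somites and none in either myotome library. The start of HOXD3 lay in a peak in E18 ZZ, E18 DZ and E21 ZZ and in none of the other 3 libraries. In E21 DZ a peak of 10784 bp began at chr15:81969571, just past the gene start at chr15:81969482. HOXB1, a hindbrain gene that is active early in the embryonic mesoderm, had a start peak of 7201, 7125, 7125 and 4982 bp in somites, none in E28 ZZ and 1373 bp in E28 DZ.

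Posterior members had a lower median accessibility than the anterior and the central members in each library. To compare genes, each peak was weighted by the share of its length inside the window and divided by the window length, giving CPM per kb of window. By this measure the median member stood at 4.74, 4.12, 6.09, 5.24, 4.48 and 5.19 CPM per kb, above 89.0% to 94.2% of the 19560 protein-coding windows of the same library, whose median was 0.759 to 0.840. Peaks covered 67.4% to 92.5% of the median HOX window and 6.69% to 11.6% of the median protein-coding window. HOX windows measured 3366 to 48262 bp, and window length was not matched in either comparison.

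The anterior class had medians of 6.12, 5.77, 6.86, 5.80, 4.94 and 5.52 CPM per kb, the central class 5.25, 4.59, 6.76, 5.67, 5.60 and 6.51, and the posterior class 2.66, 2.34, 3.05, 2.71, 3.51 and 3.97. The anterior median exceeded the central one in the 4 somite libraries and lay below it in both myotome libraries, and the posterior median was the lowest of the 3 in each library. Spearman's correlation of level with paralogue number over the 35 members was -0.853, -0.872, -0.730, -0.601, -0.366 and -0.438, given without a test because neighbouring members share peaks and all share a library. Within single clusters HOXC kept a steep slope (-0.91 and -0.85 at E18, -0.90 and -0.79 at E28), whereas HOXA went from -0.94 and -0.87 to -0.47 in both, HOXB from -0.95 in both to 0.048 and -0.24, and HOXD from -0.79 and -0.76 to -0.17 in both, over 8 to 10 members each.

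**Figure D3:**
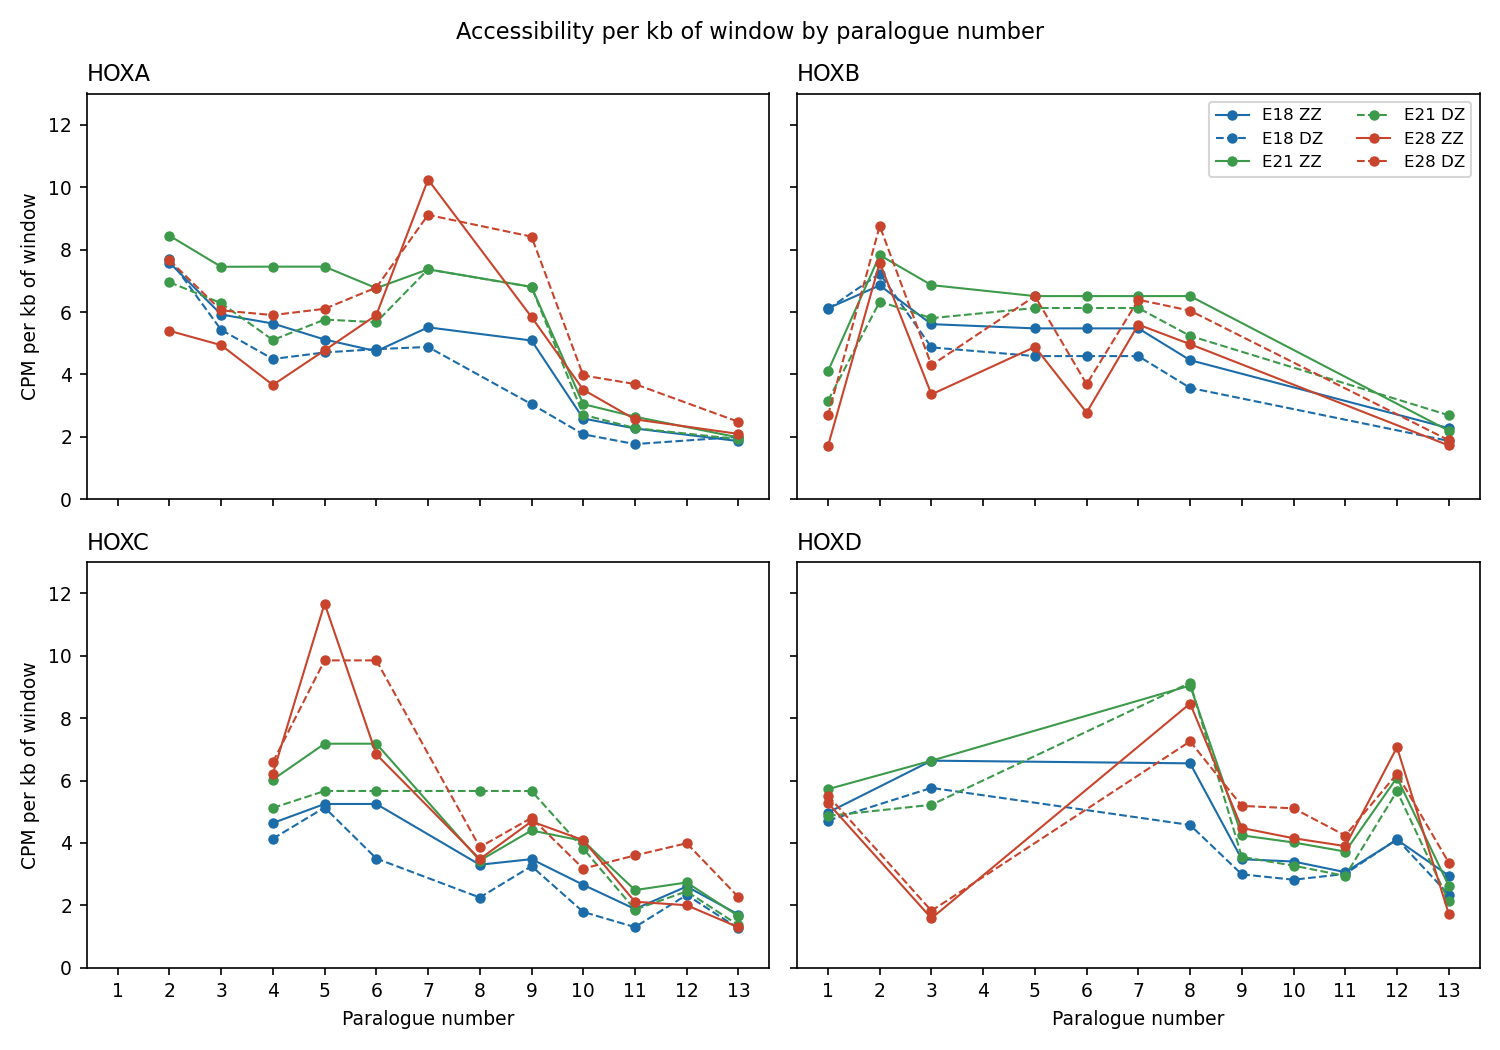
CPM per kb of window (vertical axis) against paralogue number (horizontal axis) for each cluster, 1 line per library, with solid lines for ZZ and dashed lines for DZ. Levels at E18 are lower on average among posterior members, with local rises such as HOXB1 to HOXB2, HOXD1 to HOXD3 and HOXD11 to HOXD12, and at E28 HOXA7, HOXC5 and HOXD8 stand at 7.25 CPM per kb or more while HOXB1 and HOXD3 drop below 3.

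Single members show the ends of this gradient. HOXA2, which specifies the second branchial arch and the hindbrain, stood at 7.58, 7.70, 8.44, 6.95, 5.40 and 7.66 CPM per kb. HOXA13, needed for digits and the urogenital tract, stood at 1.87, 1.9997, 1.98, 1.93, 2.09 and 2.48. The ranges of these 2 members did not overlap. HOXC13, known from hair and nail, had 1.71, 1.26, 1.66, 1.37, 1.30 and 2.27 CPM per kb, and HOXC4 at the other end of its cluster had 4.64, 4.14, 6.03, 5.12, 6.22 and 6.59. HOXD1 varied little, between 4.72 and 5.72, and HOXD13, a digit gene, lay between 1.73 and 3.37. HOXB13, the tail-most HOXB gene, lay between 1.73 and 2.69 CPM per kb, in a window of which 14.2% to 43.2% was covered.

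Between E18 and E28 the calls are given by cluster and by position, and differences between clusters or classes were not tested. Counted by whole peaks, as the windows were defined, 11 of the 35 members passed the edgeR quasi-likelihood test with Benjamini-Hochberg adjustment over all 23286 windows tested, 4 up and 7 down. Of all windows tested, 42.4% were called (20.6% higher and 21.8% lower), so the share of members called, up or down, was no larger than the background. The median log2 fold change was 0.25 over the members and -0.04 over all windows.

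HOXB held 5 of the 7 members that fell: HOXB1, HOXB5, HOXB6, HOXB7 and HOXB8. The others were HOXA4 and HOXD3. All 8 HOXB members had a negative log2 fold change with whole peaks, with a median of -1.88, but with peaks weighted by their share inside the window 4 were above 0 and 4 below, with a median of -0.09. The members that rose were HOXA9, HOXC6, HOXD10 and HOXD12. In the anterior class 0 rose and 2 fell of 7, in the central class 1 rose and 5 fell of 13, and in the posterior class 3 rose and 0 fell of 15.

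HOXB6, a gene of the thoracic axis and lateral mesoderm, had 304, 254, 456, 160, 15.99 and 21.2 CPM, with the libraries in the same order. Both E28 values lay far below the 4 somite values, and the log2 fold change was -3.89 ± 0.493 (SE, n = 2 libraries per stage; edgeR adjusted p = 0.00692). The long peak of the somite libraries counted whole in the windows of HOXB5, HOXB6 and HOXB7. With peaks weighted by their share inside the window, HOXB6 stood at 5.48, 4.59, 6.51, 6.13, 2.78 and 3.69 CPM per kb. It changed by -0.72 ± 0.18 on the log2 scale (edgeR adjusted p = 0.0212). In each somite library a single peak covered the whole windows of HOXB5, HOXB6 and HOXB7. Their weighted somite levels were therefore equal and do not resolve single genes. HOXB5, HOXB7 and HOXB8 had log2 fold changes of -2.63, -2.29 and -1.49 as whole peaks (adjusted p 0.0131, 0.0136 and 0.0164), which changed sign with weighting, to 0.10, 0.18 and 0.39, and then did not pass the test. Without the E18 DZ library HOXA4, HOXB5, HOXB6, HOXB7 and HOXB8 kept log2 fold changes of -3.19, -2.50, -3.73, -2.08 and -1.47 and did not pass, nor did HOXB8 without E18 ZZ (-1.50).

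HOXB1 fell by either measure. It had 44.1, 43.4, 29.2, 15.7, 7.34 and 11.1 CPM, and 6.12, 6.10, 4.10, 3.16, 1.71 and 2.69 CPM per kb, so each later stage lay below the earlier one without overlap. The log2 fold change from E18 to E28 was -2.27 ± 0.364 (edgeR adjusted p = 0.0102) with whole peaks and -1.56 ± 0.266 (adjusted p = 0.0064) with weighting. Per covered base it still fell, by 0.92 on the log2 scale (adjusted p = 1.49e-05). Without the E18 DZ library the whole-peak call was lost (adjusted p = 0.0749).

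HOXD3 had 221, 214, 249, 153, 36.4 and 34.8 CPM, and both myotome values lay below every somite value. In E18 ZZ, E18 DZ and E21 ZZ, 137, 128 and 158 CPM of these came from a peak of 22443, 22286 and 21935 bp. That peak lay mostly before the HOXD3 window and counted whole. The log2 fold change was -2.65 ± 0.194 (edgeR adjusted p = 0.0037) with whole peaks and -1.93 ± 0.158 (adjusted p = 0.00127) with weighting, as the covered share of its window went from 90.5% and 81.6% at E18 to 33.2% and 33.3% at E28. Per covered base its log2 fold change was 0.27 (adjusted p = 0.0551), which did not pass the test. HOXB1 and HOXD3 each remained called, in the same direction, in 13 of 14 alternative settings. Over these settings the log2 fold change ran from -2.90 to -0.92 for HOXB1 and from -17.5 to 0.27 for HOXD3.

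HOXA4, a neck-level gene, had 208, 132, 268, 118, 16.1 and 25.9 CPM and fell by 2.95 on the log2 scale (adjusted p = 0.0103), but its weighted log2 fold change was -0.15 (adjusted p = 0.702), and its weighted levels at E28 (3.66 and 5.90 CPM per kb) spanned those at E18 (5.63 and 4.49).

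The rises were smaller. HOXD12, a limb and posterior gene, had 23.5, 18.97, 28.98, 26.6, 32.3 and 36.6 CPM, with the 2 myotome libraries above all 4 somite libraries. Its log2 fold change was 0.67 ± 0.152 (edgeR adjusted p = 0.0234) with whole peaks and 0.61 ± 0.117 (adjusted p = 0.00896) with weighting, and the whole-peak call was lost when E18 DZ, E21 DZ or E28 DZ was left out (log2 fold changes 0.48, 0.64 and 0.42). HOXA9 rose by a log2 fold change of 0.89 (adjusted p = 0.0482), HOXC6 by 0.94 (0.0284) and HOXD10 by 0.55 (0.0495); the HOXD10 window lies largely inside that of HOXD9, so the 2 share peaks. Each of these 3 calls was lost without E18 DZ (log2 fold changes 0.44, 0.57 and 0.42) and without E28 DZ (0.50, 0.86 and 0.22), and also without E28 ZZ for HOXC6 (0.97), without either E21 library for HOXA9 (0.91 and 0.88) and HOXD10 (0.54 and 0.51), and without E18 ZZ for HOXD10 (0.67).

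HOXA7 had 113, 41.4, 152, 152, 128 and 189 CPM, and its whole-peak log2 fold change of 1.09 ± 0.494 did not pass (adjusted p = 0.132). Its window was fully covered in each library, and per kb it stood at 5.51, 4.88, 7.37, 7.37, 10.2 and 9.11. This was a rise of 0.82 ± 0.102 on the log2 scale with weighting (edgeR adjusted p = 0.00284). The mean density of all peaks, per covered kb, was 5.23, 5.96, 6.80, 6.34, 9.79 and 9.23 CPM in the same libraries, so it was also higher at E28. HOXC10, active at lumbar level and in the hindlimb, had 24.7, 17.6, 131, 320, 44.3 and 109 CPM. The 2 E21 values were the highest; in those libraries peaks of 23248 bp (E21 ZZ) and 52283 bp (E21 DZ) that also lay over HOXC9 and HOXC8 reached into its window. Its log2 fold change from E18 to E28 was 1.61 ± 0.49 (adjusted p = 0.0501) and, with weighting, 0.64 ± 0.144 (adjusted p = 0.0151). The weighted levels of HOXC5 rose from 5.25 and 5.14 at E18 to 11.7 and 9.85 CPM per kb at E28 (log2 fold change 0.97 ± 0.107, edgeR adjusted p = 0.00214). The HOXC5 window was also fully covered in each library, so its levels stand beside the same mean densities of all peaks.

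Weighting changed which members were called. Under it 12 members passed, 8 up (HOXA7, HOXA10, HOXC4, HOXC5, HOXC6, HOXC10, HOXD9 and HOXD12) and 4 down (HOXB1, HOXB3, HOXB6 and HOXD3), against 44.6% of all 23270 windows (20.5% higher and 24.1% lower). The anterior class then had 0 up and 3 down of 7, the central class 4 up and 1 down of 13 and the posterior class 4 up and 0 down of 15. The covered length as an offset gives counts per covered base, and with it the median log2 fold change of all windows was 0.54. Under this offset 23 members were higher and 1, HOXB1, lower, where 66.3% of all windows were higher and 2.17% lower. HOXB1 was thus lower at E28 by each of the 3 measures.

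**Figure D4:**
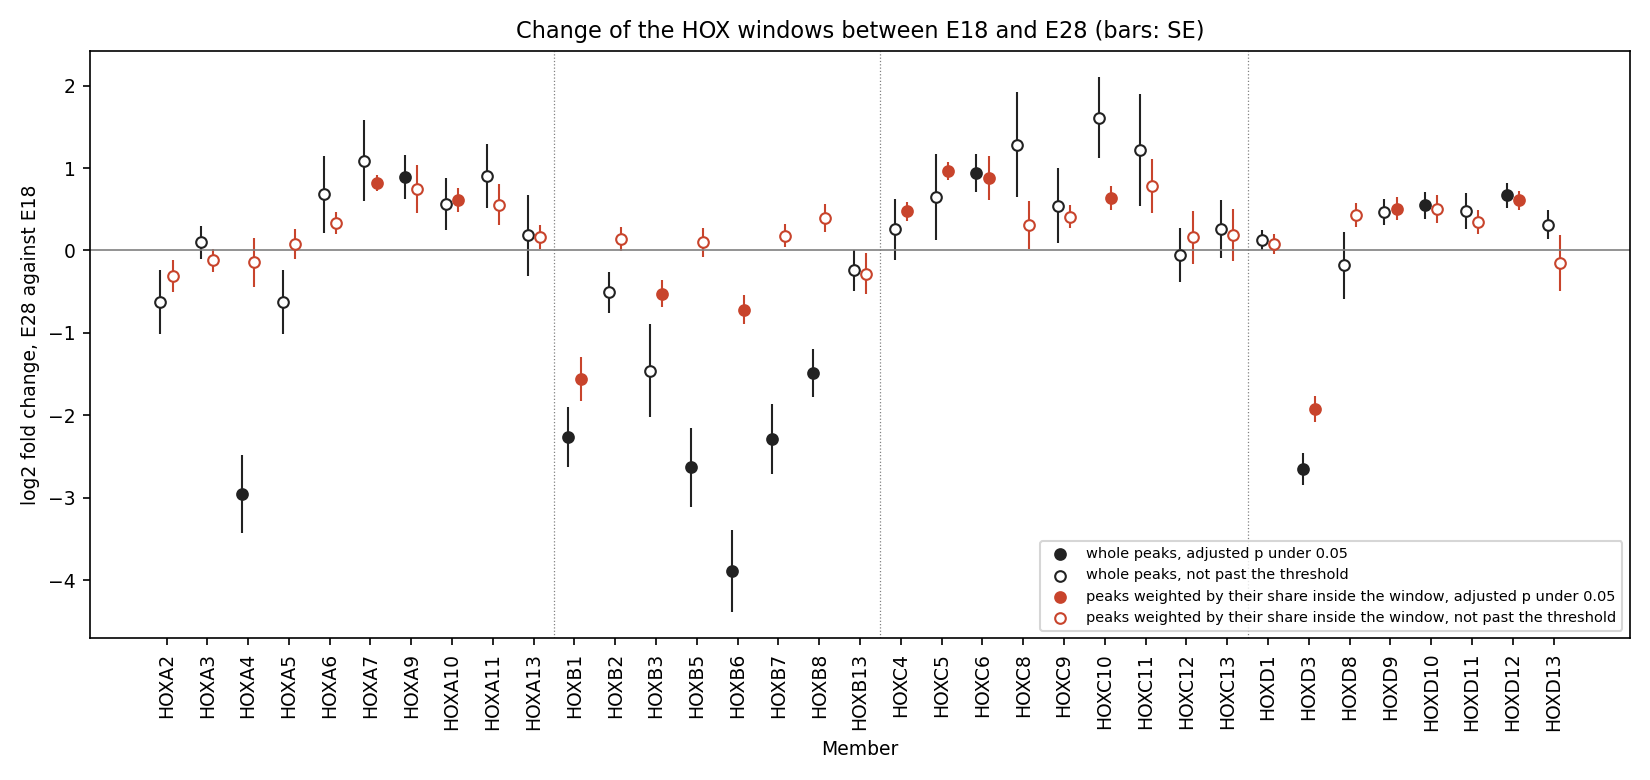
log2 fold change from E18 to E28 (vertical axis) of each of the 35 members (horizontal axis, by cluster and paralogue number), with SE bars, black for whole peaks and red for peaks weighted by overlap; filled points had an adjusted p under 0.05. HOXB5, HOXB7 and HOXB8 lie at -1.49 or lower in black and above 0 in red, whereas HOXB1 and HOXD3 lie below -1.5 in both.

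Members not yet described had smaller or less certain changes. HOXB13, with 9.93, 8.15, 9.57, 11.7, 7.52 and 8.24 CPM, had the least negative log2 fold change of its cluster and did not pass (-0.24 ± 0.249, adjusted p = 0.464). HOXC12 had 23.2, 17.4, 23.4, 17.8, 14.7 and 25.2 CPM (log2 fold change -0.06 ± 0.333, adjusted p = 0.904). HOXD1 had 21.9, 20.8, 25.2, 21.5, 23.3 and 24.3 CPM (0.12 ± 0.12, adjusted p = 0.435). HOXA2 had 95.4, 96.3, 106, 86.2, 38.6 and 94.6 CPM, where E28 ZZ stood alone below the others.

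The 2 myotome libraries stood apart from each other in several end members, a difference that could not be tested. HOXA13 had 28.1, 17.5, 29.2, 18.9, 16.1 and 36.1 CPM, HOXC13 had 16.9, 12.51, 16.4, 13.5, 12.9 and 23.5 CPM, and HOXD13 had 39.8, 32.2, 42.5, 37.6, 41.3 and 49.9 CPM. In each of these genes the highest value was that of E28 DZ, and the 2 myotome libraries spanned the E18 values for HOXA13. HOXC4, with 251, 166, 333, 415, 181 and 350 CPM, also had its E28 values on either side of those of E18 ZZ.

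Merging the peaks of the 6 libraries gave regions that were counted once, whichever members they touched. The members had 32 such regions, 29 of them with a peak in all 6 libraries, and 11 of the 29 were called between E18 and E28, 8 up and 3 down. Of all 78533 regions tested 37.1% were called, 19% higher and 18.1% lower. The regions that rose lay in HOXA (2), HOXC (2) and HOXD (4), and those that fell in HOXB (1) and HOXD (2).

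Among the called regions, the largest rise in HOXA was at chr18:45403284-45423990, from HOXA9 across HOXA7 to the start of HOXA6, with 113, 90.1, 152, 152, 179 and 189 CPM (log2 fold change 0.81 ± 0.132, edgeR adjusted p = 0.00784). In HOXC the largest called rise was at chr5:19200997-19253595, from the end of HOXC10 to the start of HOXC4, with 223, 173, 302, 296, 346 and 374 CPM (0.83 ± 0.139, adjusted p = 0.00861). In both regions E28 exceeded E21 and E21 exceeded E18 without overlap. In HOXD the largest called rise was at chr15:81896867-81903356, over HOXD12 and the end of HOXD13, with 23.5, 18.97, 28.98, 26.6, 32.3 and 36.6 CPM (0.66 ± 0.164, adjusted p = 0.0263), a call kept in 8 of 13 alternatives and lost without E18 DZ, E28 DZ or either E21 library and among regions whose covered length differed by at most 1.5 times. A region at chr15:81933820-81943021, from the body of HOXD8 past its 3′ end, had 64.0, 58.2, 88.3, 85.1, 94.5 and 93.1 CPM (0.57 ± 0.0898, adjusted p = 0.00713).

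The HOXB1 region at chr12:24781935-24789135 had 44.1, 43.4, 29.2, 19.5, 7.34 and 11.9 CPM and fell by 2.22 ± 0.304 on the log2 scale (edgeR adjusted p = 0.00525). The HOXD3 body lay in a region at chr15:81969294-81980415 with 84.2, 86.0, 90.6, 73.3, 51.6 and 49.9 CPM, a fall of 0.79 ± 0.0984 on the log2 scale (adjusted p = 0.00431). Its covered length went from 11117 and 10437 bp at E18 to 5655 and 5771 bp at E28, and per covered base the log2 fold change was 0.12 (adjusted p = 0.317). The 22 kb domain before HOXD3, at chr15:81946027-81968615, fell by 0.52 (adjusted p = 0.0453) and per covered base stood at -0.05 (adjusted p = 0.696). This call was kept in 7 of 13 alternatives and was lost when any library but E28 DZ was left out.

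The long HOXB domain itself, at chr12:24813526-24883636 from HOXB3 to HOXB8, had 365, 299, 456, 384, 291 and 358 CPM. These values overlapped between stages and the log2 fold change was -0.07 ± 0.161 (edgeR adjusted p = 0.754), although its covered length went from 69437 and 66188 bp at E18 to 42446 and 48901 bp at E28. Its counts were thus carried by less called sequence at E28. Per covered base it rose by 0.50 on the log2 scale (edgeR adjusted p = 5.46e-05), where the median log2 fold change of all regions was 0.43. With that offset 18 member regions were higher and 1 lower, against 45.8% and 6.39% of all regions. The HOXB1 region, the HOXA7 to HOXA9 region, the HOXC4 to HOXC9 region and the HOXD8 region at chr15:81933820-81943021 were called in the same direction under every alternative that gave them a value (12 for HOXB1 and 13 for each of the others).

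**Figure D5:**
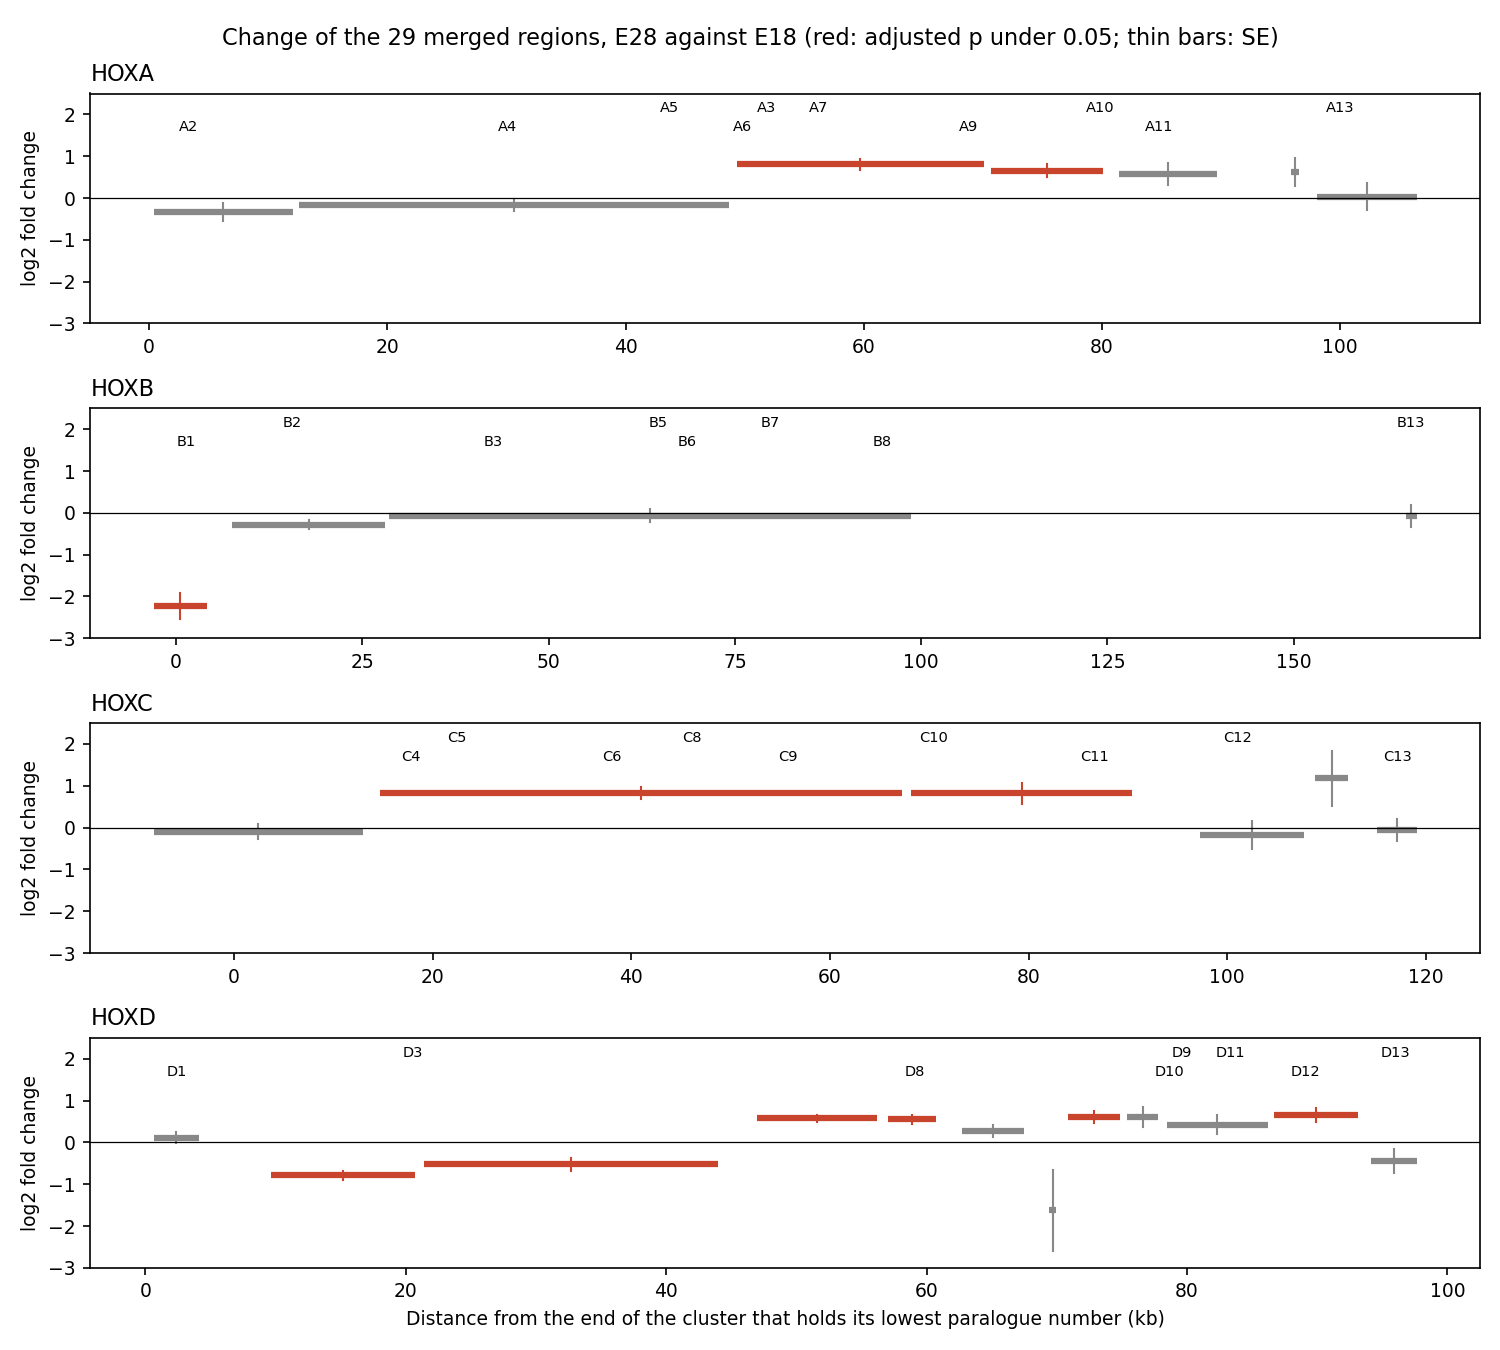
Each bar is 1 of the 29 merged regions, drawn along its cluster (horizontal axis, kb from the end with the lowest paralogue number) at its log2 fold change from E18 to E28 (vertical axis), with a thin SE bar and red for an adjusted p under 0.05. The HOXB1 region lies at -2.22, the long HOXB domain near 0, and the regions of HOXA, HOXC and HOXD called higher between 0.55 and 0.83.

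Between E18 and E21, both from somites, 0 of the 35 members were called by edgeR, against 1.93% of all windows. The unadjusted edgeR p was under 0.05 in 10 of the 35 members and in 6774 of all 23286 windows, and the members' smallest adjusted p was 0.0563. DESeq2 called 2 members, HOXC10 and HOXA5, both higher at E21, where it called 16.2% of all windows higher. With weighting HOXC10 (log2 fold change 0.82, adjusted p = 0.0389) and HOXD8 (0.70, adjusted p = 0.0494) were higher, against 2.15% of windows. HOXD8, a gene of the trunk, stood at 6.55, 4.58, 9.04 and 9.13 CPM per kb in the 4 somite libraries. In the regions, 2 of 29 rose by E21, both at HOXD8 (log2 fold changes 0.54 and 0.44), against 4.8% of all regions.

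Between E21 and E28, 5 members fell with whole peaks: HOXA4, HOXB5, HOXB6, HOXB7 and HOXD3 (log2 fold changes -3.10, -2.68, -3.93, -2.32 and -2.50), where 4.77% of all windows were lower. With weighting HOXC5 rose (0.70) and HOXB3, HOXB6 and HOXD3 fell (-0.77, -1.02 and -1.83), against 10% of windows called either way. Among the regions 1 fell, the body of HOXD3 (-0.66), against 4.61% of all regions lower. The 2 comparisons with E28 share its libraries, so they are not independent of each other.

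No member was called between the breeds over the 3 stages. In the comparison of DZ with ZZ 0 of 35 windows and 0 of 29 regions were called by edgeR, against 0.00429% of all windows and 0% of all regions. The count at an unadjusted edgeR p under 0.05 was also 0 for both, against 1187 of all 23286 windows and 3879 of all 78533 regions. The members' smallest unadjusted window p was 0.1135, and their largest log2 difference in a window was 0.758. DESeq2 called 0 members, against 2.2% of all windows. With 3 libraries a breed, a difference smaller than the spread left between libraries after the terms for stage and breed was not detectable here.

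In single barcodes, the order of the clusters differed between libraries. HOXB, which has the longest span, had the highest share of barcodes with counts in E18 ZZ and E18 DZ, and HOXC in E28 ZZ. In each of these libraries the 95% exact interval of that cluster overlapped no other. The intervals hold the counting error of a single library only, and the cluster shares of a library come from the same barcodes. They are therefore no test between stages or clusters. The highest intervals overlapped in E21 ZZ (HOXB 87.8%, HOXD 87.0%), E21 DZ (HOXB 78.9%, HOXA 78.8%) and E28 DZ (HOXC 80.8%, HOXA 79.5%). A barcode had counts in HOXB in 86.7%, 82.2%, 87.8%, 78.9%, 63.3% and 72.1% of kept barcodes, and in HOXD in 85.0%, 78.7%, 87.0%, 76.1%, 58.6% and 61.6%. The 95% exact intervals of E28 ZZ and E28 DZ were 62.3% to 64.2% and 71.2% to 73.1% for HOXB, and 57.6% to 59.6% and 60.6% to 62.6% for HOXD. Since depth differed, barcodes were thinned to 1000 fragments, which left HOXB at 40.1%, 35.5%, 43.7%, 37.4%, 24.8% and 31.9% and HOXD at 35.6%, 29.6%, 40.5%, 32.3%, 21.3% and 22.3%. The 2 E28 libraries had the lowest shares in both clusters. HOXA stood at 36.6%, 32.2%, 41.6%, 36.8%, 34.9% and 41.0% and HOXC at 32.4%, 25.6%, 38.6%, 35.2%, 37.5% and 41.9% after thinning, so for those clusters the E28 shares lay within or just above the somite range.

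Genes known to act on the HOX clusters or with their proteins were taken as lists. Of 37 regulators, 11 rose and 7 fell between E18 and E28 with whole peaks, against 20.6% and 21.8% of all windows, and the median log2 fold change was 0.07. The 3 CDX genes, which activate central and posterior HOX genes in the tail bud, fell; CDX1, CDX2 and CDX4 had log2 fold changes of -2.59, -1.69 and -1.18. CYP26A1, which breaks down retinoic acid, fell too (-1.33), as did ALDH1A2, which makes it (-0.91), and GDF11 (-0.46). Those that rose were the Polycomb genes SUZ12, PHC1, EED, RNF2 and CBX2, the trithorax gene KMT2B, KDM6A, SMARCA4, CTCF, GMNN and EGR2, with log2 fold changes from 0.30 to 0.69.

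Of 9 cofactor genes, 0 rose and 4 fell, namely MEIS1 (-0.59), MEIS2 (-0.69), MEIS3 (-0.63) and PKNOX1 (-1.54), and the PBX genes did not pass. The homeobox genes EVX1 and EVX2, at the posterior ends of HOXA and HOXD, had log2 fold changes of -0.61 and 0.03 and did not pass, and HOTAIR, HOTAIRM1, HOTTIP and PRAC1 had no window. Of the 46 protein-coding neighbours tested within 500 kb of the clusters, 10 rose and 11 fell with a median of -0.01 over those 46.

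Markers of other tissues moved with stage. In the same library order, the summed CPM of 11 neural tube and neuron markers was 502, 548, 498, 394, 235 and 292, and 9 of the 11 fell between E18 and E28. The sums of the 3 intermediate mesoderm markers went from 351 and 323 to 154.6 and 167.5, of the 6 epithelium and gut markers from 249 and 247 to 121 and 128, of the 4 heart markers from 110 and 83.6 to 34.0 and 42.9, of the 4 neural crest markers from 103 and 116 to 52.5 and 76.2 and of the 5 blood markers from 139 and 129 to 88.9 and 88.7. The 8 endothelial markers (334 to 372) and the 6 limb and lateral mesoderm markers (512 to 640) differed less between libraries in their sums, although 2 endothelial markers rose (EMCN and ERG) and 4 fell (CDH5, TIE1, TEK and PECAM1), and 1 limb marker rose (PRRX1) and 3 fell (TBX4, FOXF1 and TBX5). Of the others, 2 intermediate mesoderm, 3 epithelium and gut, 3 heart, 1 neural crest and 1 blood marker fell and 0 rose. 1 marker each of neural crest and blood was at 0 in all libraries and 1 of heart at 0 in both E28 libraries. HOX genes are active in several of these tissues, and their part in the changes of HOXB, HOXD and the CDX genes was not tested.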

How the data were processed

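Accessibility was measured by single-cell ATAC-seq in 6 libraries. The authors aligned reads to Sscrofa11.1 and called peaks and barcodes separately for each library (Cell Ranger ATAC 1.2.0; the submitters' processing notes also name Seurat 3.1.1 and Signac 0.2.2). Each deposited matrix gives, per peak and barcode, raw counts of Tn5 cut sites without normalization, and sequence outside a library's own peaks has no counts, so a sum depends on how much was called. The study's RNA data were not used here.

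Barcodes with 2000 to 30000 counts (cut sites in peaks) were kept (58809 of 64439). The paper set limits of 2000 and 30000 on fragments, a different unit, so the kept barcodes are not the paper's set of cells. The study's own quality filters were not applied, and no doublet caller was run. Counts were summed per peak, then per window (gene body plus 2 kb upstream) for all 28224 genes of the annotation, and per region (peaks of the libraries merged where they shared at least 1 bp). Windows and regions were fitted with edgeR 4.0.16 in R 4.3.3 (quasi-likelihood test, TMM, filterByExpr, terms for stage and breed, 2 residual degrees of freedom), with Benjamini-Hochberg adjustment over all features and a threshold of 0.05. Each stage and breed had 1 library, so the breeds served as replicates of a stage and the interaction could not be tested; p-values measure only the spread between these libraries. The SE of a log2 fold change was its size divided by the square root of F. DESeq2 1.42.0 was an alternative, as were peaks weighted by their share inside the window, covered length as an offset, the 2 kb upstream alone, library totals without TMM, no filter, no breed term, barcodes with 4000 to 60000 counts and each library left out. Tables and plots were made with numpy 2.4.6, pandas 2.3.3 and matplotlib 3.10.9, and the fitting code was tested on simulated data.

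Members given with the value of each library were, in each cluster, those with the lowest and highest paralogue number and with the largest and smallest log2 fold change between E28 and E18. HOXA9, HOXC5, HOXC6, HOXD8 and HOXD10 were added after their values were seen, with a fold change or the values of some libraries. The members and lists were chosen with earlier results of these data known. A called gene of the regulator list and a start sequence are not reported here. Windows that overlap, such as HOXA3 with HOXA4 to HOXA6, HOXB5 with HOXB6 and HOXD9 with HOXD10, share counts, as do windows that touch the same wide peak, such as HOXC4 with HOXC5: peaks in several windows held 43.7% to 67.1% of the members' counts.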

Additional observations from a re-analysis of the deposited data

Results flagged for a closer look

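In 5 of the 15 members given with the value of each library, the change from E18 to E28 had opposite directions in the breeds. The log2 ratio of CPM was -0.8 in ZZ and 1.04 in DZ for HOXA13, -0.402 and 0.0167 for HOXB13, -0.472 and 1.08 for HOXC4, -0.66 and 0.534 for HOXC12, and -0.395 and 0.912 for HOXC13. With peaks weighted by overlap HOXA13 (0.168 and 0.312) and HOXC4 (0.423 and 0.672) had the same direction in both breeds, and the other 3 kept opposite directions. With 1 library per stage and breed the difference between breeds was not tested. Over all 35 members, 11 had opposite directions with whole peaks and 8 with peaks weighted by overlap. Opposite directions were not counted over all windows, so these counts have no background and cannot be read as particular to HOX genes.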

How the results depend on the processing

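The labels give no replicate numbers that pair libraries, and the breed term already blocks the stage comparisons by breed; without it 13, 0 and 7 members were called between E18 and E28, E18 and E21, and E21 and E28. The count of members called between E18 and E28 (11) became 24 with covered length as an offset and 6 with the 2 kb upstream alone, and ranged from 3 (without E18 DZ) to 23 (without E28 ZZ) when 1 library was left out. Between E18 and E21 (0) it became 2 with DESeq2, 10 with the offset and 2 with weighting, and 0 to 4 with a library left out (4 without either E28 library). Between E21 and E28 (5, against 5.71% of all windows) it became 9 with DESeq2 (against 33.6%), 13 with the offset (43.1%) and 2 with the upstream 2 kb alone (2.45%). It became 3 without TMM and 3 with barcodes of 4000 to 60000 counts, and it varied with a library left out. No share over all windows or regions was counted for the settings given without one.

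For regions, the count between E18 and E28 (11) became 19 with the offset and 5 among regions whose covered length differed by at most 1.5 times, and 5 (without E18 DZ) to 17 (without E28 DZ) with a library left out. The other 2 region comparisons were added after seeing the data. Between E18 and E21 (2, against 6.59% of all regions) the count was 7 with the offset, against 17.6%. It was 5 with DESeq2 and 0 within 1.5 times the covered length, and it varied with a library left out. Between E21 and E28 (1, against 7.13% of all regions) it was 14 with the offset, against 32.4%. It was 6 with DESeq2, 2 without TMM, 2 without the breed term and 0 within 1.5 times, and it varied with a library left out.

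With the offset the median log2 fold change of all windows was 0.54 between E18 and E28. A turn of sign under it therefore need not be a rise relative to other windows. The sign turned with it for HOXA4 (log2 fold change 0.63), HOXA5 (0.28), HOXB2 (0.16), HOXB3 (0.32), HOXB5 (0.52), HOXB6 (0.15), HOXB7 (0.80), HOXB8 (0.66), HOXB13 (0.97), HOXC12 (0.41), HOXD3 (0.27) and HOXD8 (0.57), of which HOXA4, HOXB7, HOXB8, HOXB13 and HOXD8 lay above that median. It turned with weighting for HOXA3 (-0.12), HOXA5 (0.0741), HOXB2 (0.14), HOXB5 (0.0982), HOXB7 (0.18), HOXB8 (0.39), HOXC12 (0.16), HOXD8 (0.43) and HOXD13 (-0.15), and with the upstream 2 kb alone for HOXB8 (0.069), HOXC13 (-0.15), HOXD8 (0.45) and HOXD13 (-0.55). With a library left out, HOXA13 ranged from -0.87 (without E28 DZ) to 0.99 (without E28 ZZ), HOXC12 from -0.74 (without E28 DZ) to 0.49 (without E28 ZZ) and HOXD8 from -0.87 (without E18 DZ) to 0.66 (without E18 ZZ). The offset divides by a covered length that was shorter at E28, so each of its fold changes is one of signal per covered base; the cause of the other turns was not tested. Turns with a library left out in members called neither with nor without it are not listed. Leaving out a library left 1 library in a stage, which is then assumed to vary like the others.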
